A study of Homo sapiens with 4 samples.

Results

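The peaks described here are regions away from protein-coding transcript starts that carried the histone mark H3K27ac in all 4 cancer cell lines studied. They were chosen from the peak calls themselves: a peak of the OVCAR-3 list was taken if it shared at least 1 base with a peak of each of the SKOV-3, COLO-205 and DU-145 lists and if its summit lay more than 1 kb from every protein-coding transcript start of GENCODE on hg19. The rule gave 734 peaks, out of 59053 distal OVCAR-3 peaks (1.24%) and 251138 peaks in the 4 lists together. Over the whole OVCAR-3 list, 5178 of 76093 peaks (6.8%) overlapped all other lists, and the other 4444 of these lay at a protein-coding promoter. Since the overlap was the rule, these shares describe the selection and no test was made on them.

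The study sequenced chromatin precipitated with an antibody against H3K27ac from 2 ovarian cancer lines, OVCAR-3 (grown in RPMI 1640) and SKOV-3 (in McCoy's 5a medium), the colon cancer line COLO-205 (in RPMI) and the prostate cancer line DU-145 (in Eagle minimal essential medium). All 4 are established lines, all media held fetal serum, and no treatment is given in the labels. Each line has 1 library and no replicate, so differences between lines have no replicate check, and the line, its medium and its library cannot be told apart. The confidence intervals in this text are exact Clopper-Pearson intervals at 95% and cover counting error only.

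H3K27ac is an acetyl group on lysine 27 of histone H3, placed by the acetyltransferases p300 and CBP on nucleosomes next to active promoters and active enhancers. Enhancers are mostly used by some cell types and not by others, while many promoters are active in nearly all cells. AP-1, the dimer of FOS and JUN proteins, binds many enhancers of growing epithelial and cancer cells, and SP and KLF proteins bind GC-rich boxes that are common in promoters with CpG islands.

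With 14001 peaks the SKOV-3 list was by far the shortest and limits how many peaks can be common, while the other lists held 75468 to 85576. The tags behind the lists, computed from the lowest background of each, were between 22400000 in SKOV-3 and 36000000 in DU-145. Among markers of the labelled tissues, a peak lay at the start of 3 of 5 epithelial genes in SKOV-3, where EPCAM and CDH1 had none, and of all 5 in each other line. None of the 4 blood cell genes had a peak in any line. All 6 ovarian genes were marked in OVCAR-3 and 2 in SKOV-3 (PAX8 and SOX17), but also 4 in COLO-205 and 3 in DU-145. Of 6 colon genes 3 were marked in COLO-205, CDX2 among them, 1 (LGALS4) in DU-145 and in OVCAR-3, and 0 in SKOV-3. Of 6 prostate genes 2 were marked in each of DU-145, COLO-205 and OVCAR-3 and 0 in SKOV-3, so this list did not set the prostate line apart. TMPRSS2 was marked in these 3 lines, and FOLH1 had no peak in any.

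Sequences around 4 of the 10 peaks with the highest rank in their weakest line are shown first, since the results below turn on what letters lie next to such summits. Each is the plus strand of hg19 around the match nearest to the summit, with the match in capitals. The first holds an AP-1 match 242 bp from the summit of an intergenic peak near KRT80, at chr12:52541142-52541268. The second holds an AP-1 match 236 bp from the summit in an intron of MTCL1, at chr18:8801326-8801452, just beyond the right end of the called peak. The third holds a CRE match 231 bp from the summit of an intergenic peak near MIR23AHG, at chr19:13958087-13958214. The fourth holds an EGR match 165 bp from the summit at the start of MIRLET7A1HG, at chr9:96928499-96928627.
KRT80 peak: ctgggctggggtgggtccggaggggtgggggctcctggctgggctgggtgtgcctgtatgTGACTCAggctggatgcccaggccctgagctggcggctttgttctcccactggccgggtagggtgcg
MTCL1 peak: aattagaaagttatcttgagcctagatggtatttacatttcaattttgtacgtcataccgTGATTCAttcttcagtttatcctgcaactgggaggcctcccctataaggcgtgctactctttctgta
MIR23AHG peak: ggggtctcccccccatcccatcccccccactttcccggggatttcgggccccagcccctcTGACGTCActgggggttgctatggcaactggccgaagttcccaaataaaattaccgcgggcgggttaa
MIRLET7A1HG peak: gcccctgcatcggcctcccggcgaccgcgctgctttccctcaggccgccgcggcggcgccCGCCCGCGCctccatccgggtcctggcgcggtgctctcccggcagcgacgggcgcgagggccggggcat

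Most of the 734 peaks lay neither next to a coding promoter nor at the far end of a gene desert. Their summits were a median of 14246 bp from the nearest protein-coding start, against 21653 bp for the 58319 other distal OVCAR-3 peaks. Between 1 and 5 kb from a start lay 189 of them (25.7%, 22.6 to 29.1), against 16.1% of the other distal peaks. The 1595 distal OVCAR-3 peaks that overlapped the COLO-205 and DU-145 lists but not SKOV-3 had a median of 14099 bp, with 24.8% (22.7 to 27) at 1 to 5 kb, so the shorter distance is not particular to the 734. Another 99 were 5 to 10 kb away, 296 (40.3%) were 10 to 50 kb away, 89 were 50 to 100 kb away and 61 (8.31%) were over 100 kb away. The cut at 1 kb fell in a continuous range. Just inside it were the peaks next to CHST11 and PTGR1, both 1007 bp from the start, and DNAAF2, at 1026 bp. Just outside were common peaks at UBE2G1 (997 bp), ARID1B (995 bp) and EPB41L4A (990 bp). The fold enrichment of the CHST11 peak was 4.32 in OVCAR-3, 3.91 in SKOV-3, 4.06 in COLO-205 and 4.62 in DU-145, and that of the UBE2G1 peak was 5.99, 3.35, 5.64 and 5.74 in the same order. A wide peak may still reach a promoter: 59 of the 734 (8.04%) extended to within 1 kb of a protein-coding start and 21 (2.86%) held one.

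The rule removed protein-coding starts only, and 271 of the 734 peaks (36.9%, 33.4 to 40.5) had their summit within 1 kb of a start of another transcript type, against 10.5% (10.3 to 10.8) of the other distal peaks. These starts belong to long non-coding RNAs (lncRNAs), pseudogenes, small RNAs and non-coding transcripts of coding genes. With starts of all transcripts of protein-coding genes counted, 656 peaks were left. Some summits thus lay within 1 kb of an annotated start of a coding gene. A lncRNA gene started within 1 kb of 192 of the peaks (26.2%, 23 to 29.5), against 4.22% (4.06 to 4.38) of the other distal peaks. Among the 1595 distal peaks of the other 3 lines that were not in the SKOV-3 list, 23.8% (21.8 to 26) lay at a start of another type and 14.6% (12.9 to 16.4) at a lncRNA gene start, so a share above that of the other distal peaks is not particular to the 734. Among the promoter peaks common to all lines, which lie at coding starts, 25.9% lay at a lncRNA gene start. Counted the other way, 4.22% of the 6417 distal OVCAR-3 peaks at such other starts were common to all lines. Of the 8048 distal peaks that lay only 1 to 5 kb from a coding start it was 1.47%, and of the 44588 with no start near them 0.774%. In this sense the 734 peaks divide into 271 at a start of another type, 118 that only flank a coding start, and 345 (47.0%, 43.3 to 50.7) near no annotated start, that is over 1 kb from any start and over 5 kb from a coding one. Among the other distal peaks 75.9% were of the last kind.

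By position in genes, 270 summits (36.8%) lay in introns of protein-coding genes, 65 (8.86%) in their exons, 74 (10.1%) in exons of lncRNAs, 70 (9.54%) in lncRNA introns, 11 in other genes and 244 (33.2%) between genes. The other distal peaks lay in coding introns more often (51.9%) and in lncRNA exons less often (1.81%). The 734 peaks were wide, with a median of 835.5 bp against 287 bp for the other distal peaks and 855 bp for the common promoter peaks. Their 250 bp on each side of the summit held a median of 61.1% GC and 17 CpG pairs, between the other distal peaks (50.5% and 9) and the common promoter peaks (71.1% and 53). The peaks at other starts held a median of 36 CpG, those that flank a coding start 15.5, and those near no start 13. A wider peak has more bases to overlap with, so the widths are a description of the selection.

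By fold enrichment, few of the peaks ranked high in every line. Fold enrichment, the tag pileup at the summit over the local background, is not scaled between libraries, so each peak was ranked within its own list. Where 4 values are given without line names, they are in the order OVCAR-3, SKOV-3, COLO-205 and DU-145. The median fold enrichment of the 734 peaks was 8.57 in OVCAR-3, 5.50 in SKOV-3, 4.59 in COLO-205 and 5.17 in DU-145. The median percentile of the peaks was 84.0 in the OVCAR-3 list, 54.6 in SKOV-3, 45.9 in COLO-205 and 71.4 in DU-145. The ranks depended on the measure and on the length of the lists. With each list cut to the same number of peaks, 209 peaks were common, and the median percentile was 58.2 in OVCAR-3, 71.6 in SKOV-3, 31.5 in COLO-205 and 49.8 in DU-145, so that SKOV-3 stood above OVCAR-3. Ranked by −log10 q, which also grows with the number of tags, the median percentile was 89.9 in OVCAR-3, 65.2 in SKOV-3, 80.8 in COLO-205 and 89.9 in DU-145. By fold enrichment, 169 of the 734 peaks (23%) stood at the 50th percentile or higher in all lists, and 15 (2.04%) at the 90th or higher in all. Of the common promoter peaks 25.2% and 2.86% did. The percentile of a peak differed by more than 50 points between its highest and its lowest line in 424 peaks (57.8%). The rank was highest in OVCAR-3 for 315 peaks and lowest in COLO-205 for 283.

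**Figure D1:**
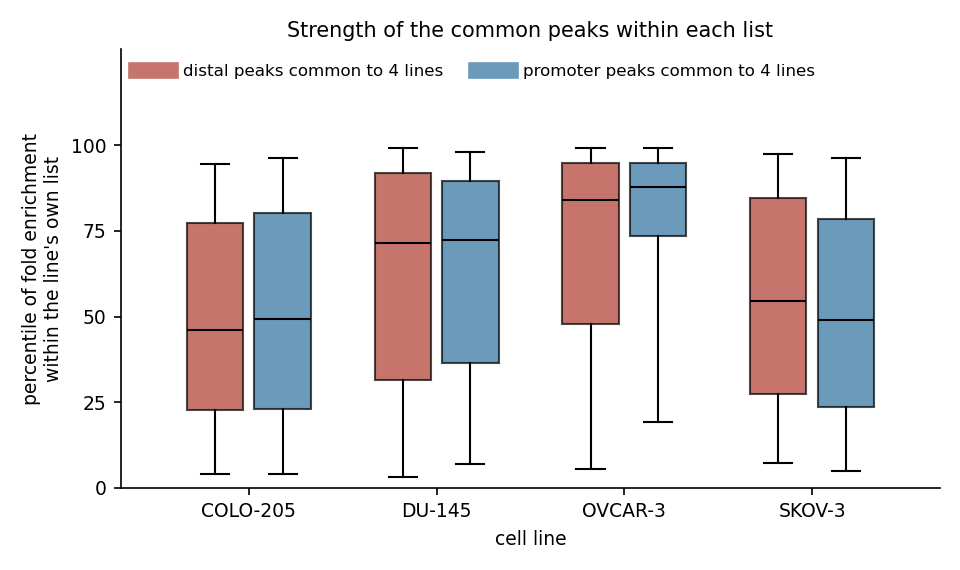
Percentile of fold enrichment within each line's own list (vertical axis, percent of the list at or below the value) for the 734 common distal peaks (red) and the 4444 common promoter peaks (blue). Boxes span the quartiles, lines in the boxes are medians and whiskers reach the percentiles 5 and 95; the distal medians run from 45.9 in COLO-205 to 84.0 in OVCAR-3.

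Across the 734 peaks, the fold enrichments of any pair of lines had a Spearman correlation of 0.304 (COLO-205 with DU-145) to 0.405 (OVCAR-3 with SKOV-3), and across the common promoter peaks of 0.265 to 0.476. These correlations are over peaks of the same 4 libraries, which share base composition and mappability, and are given as a description. The peaks were chosen for overlap, so the distances between summits are bounded by that rule and by the peak widths, and they are given as a description. From the OVCAR-3 summit to the nearest summit among the overlapping peaks of a line, the median distance was 45 bp in SKOV-3, 55 bp in COLO-205 and 70 bp in DU-145, against 38, 46 and 51 bp at the common promoter peaks. Within 150 bp, about the length of DNA on a nucleosome, lay 79.8%, 76.3% and 69.3% of the summits in the same order. For 568 of the 734 peaks (77.4%) the OVCAR-3 summit itself was covered by a peak in all lists. The stretch covered in all 4 lists had a median of 260 bp, or 39.5% of the OVCAR-3 peak. In 46 peaks (6.27%) no single base was covered in all 4, since the other lists overlapped different stretches of the same OVCAR-3 peak.

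The 10 peaks with the highest rank in their weakest line had fold enrichments of 7.26 or more in every line. At the head was chr1:1676950-1678085, between genes, 218 bp from the start of ENSG00000290854 and 11058 bp from that of NADK, an NAD kinase. Its fold enrichment was 46.7 in OVCAR-3, 21.8 in SKOV-3, 17.3 in COLO-205 and 10.4 in DU-145, in the top 1% of each list. Of the 31-base words in its window 68.8% occur more than once in the genome, so reads there could come from a copy. None of the other 9 had over 50% of such repeated words.

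An intron of BICRAL, which codes for a subunit of SWI/SNF chromatin remodelling complexes, held chr6:42749462-42751710, 1232 bp from a coding start. There the fold enrichment was 18.3 in OVCAR-3, 11.3 in SKOV-3, 28.6 in COLO-205 and 9.77 in DU-145. In COLO-205 none of the 734 was stronger. The peak chr9:100745573-100747753, in ANP32B, a histone chaperone, gave 20.7, 13.5, 13.9 and 8.58 in the same order. It lies 152 bp from a non-coding start of the gene and 1099 bp from a coding one, so both peaks sit beside promoters.

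Peaks with no annotated start within 1 kb were also among the 10. The peak chr12:52537540-52544579, 44821 bp from KRT80, a keratin of epithelia, gave a fold enrichment of 23.6 in OVCAR-3, 12.0 in SKOV-3, 8.28 in COLO-205 and 8.79 in DU-145. It holds the first AP-1 match printed above. Its neighbour 39414 bp from KRT80 gave 11.2, 8.77, 5.50 and 5.64. Both lay above the 72nd percentile of every list. In the intron of VMP1, a membrane protein of autophagy whose gene ends next to the microRNA gene MIR21, a peak gave 14, 9.68, 10.2 and 13.7. A second one in the last part of VMP1, 2079 bp from MIR21, was picked after its values were seen and gave 19.3, 7.36, 5.65 and 6.09. Between genes on chromosome 19, 4640 bp from MIR23AHG, the peak chr19:13957063-13958964 gave 14.5, 14.2, 7.46 and 7.26, and it holds the CRE match printed above. The intergenic peak chr9:132174806-132177527, 194791 bp from NTMT1, gave 19, 10.2, 9.99 and 7.37.

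The remaining 3 lie within genes. At the start of MIRLET7A1HG, the host transcript of let-7 microRNAs, the peak chr9:96928437-96929002 gave 20.3 in OVCAR-3, 14 in SKOV-3, 9.01 in COLO-205 and 9.86 in DU-145. In MTCL1, a microtubule crosslinking protein, chr18:8800967-8801325 gave 16.0, 17.6, 7.63 and 22.1. In RUNX1, a transcription factor of blood development that many epithelia also express, chr21:36419036-36419762 gave 15.2, 9.19, 7.54 and 14.7. Both of the latter had their lowest value in COLO-205, with 28 and 26 tags at the summit.

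Outside the 10, the peak with the highest OVCAR-3 and SKOV-3 values of the 734 was chosen after the values were seen. It lies at chr11:72967521-72971487 and gave 65.7 in OVCAR-3, 24.7 in SKOV-3, 5.56 in COLO-205 and 14.6 in DU-145. Its window holds AP-1 letters, and P2RY6, a receptor for extracellular nucleotides, has the nearest coding start, 6800 bp away.

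**Figure D2:**
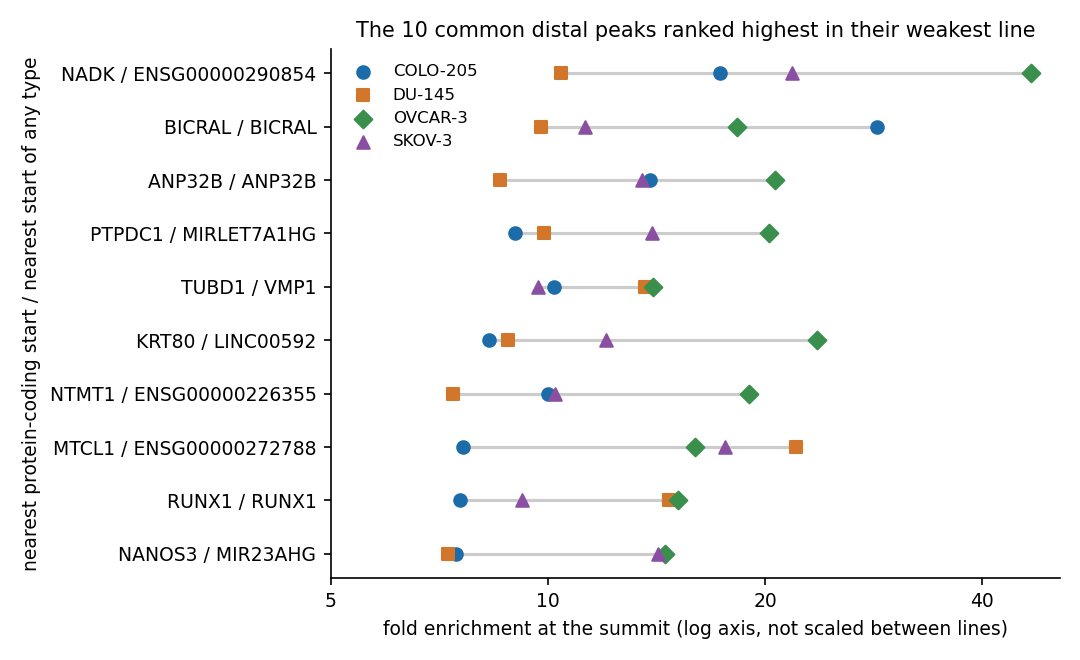
Fold enrichment (horizontal log axis, not scaled between lines) of the 10 common distal peaks with the highest rank in their weakest line; each row is a peak, named by its nearest protein-coding start and its nearest start of any type, and each symbol is the single library of a line. OVCAR-3 has the highest value in 8 of the 10 rows, COLO-205 at BICRAL and DU-145 at MTCL1.

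Other peaks ranked high by fold enrichment in some lines and low in others. The largest range of ranks among peaks past the 90th percentile in some line was at chr14:105946284-105950946, 4467 bp from CRIP1, where the fold enrichment was 19.9 in OVCAR-3, 5.85 in SKOV-3, 2.59 in COLO-205 and 6.57 in DU-145. Only 522 of its 4663 bp are covered in all 4 lists, and the OVCAR-3 summit is not among them, so its values come in part from different stretches. A peak 112700 bp from ZFP64 gave 23.9, 5.40, 2.86 and 3.73, and 45.8% of the 31-base words in its window were repeated in the genome. The CRIP1 and ZFP64 peaks were high in OVCAR-3 and at the bottom of the COLO-205 list by fold enrichment, at the percentiles 0.532 and 2.09. Their −log10 q in COLO-205 was 5.28 and 4.20. Another, 26277 bp from PSMA6, gave 7.31, 4.71, 2.79 and 8.69, but no base of it is covered in all 4 lists, so these values come from different stretches. In an exon of LINC01588, 110565 bp from ARF6, DU-145 stood out instead, with 14.8 against 3.36 in OVCAR-3, 4.37 in SKOV-3 and 5.04 in COLO-205. At SLC39A4, a zinc transporter, the values were 18.1, 5.97, 6.24 and 2.93, so DU-145 was the low line there. At LINC01588 a single wide DU-145 peak overlaps 4 of the 734, and its value counts for each. In 41 of the 734 peaks the lowest rank was under the first percentile, in 20 of them in DU-145 and in 12 in COLO-205. Of these 41 windows 20 held at least 10% repeated 31-base words, against 142 of all 734. These low ranks are of fold enrichment, and the call itself can be strong. The peak chr1:121484217-121485523 stood at the percentile 0.92 in DU-145, with a −log10 q of 51.81 and 378 tags at the summit. Also among the 41 was chrY:10031796-10032016, with 3.89, 4.52, 3.70 and 2.42, although OVCAR-3 and SKOV-3 are ovarian lines. Both were picked after their values were seen. How far mapping to repeats made these low ranks, or the call on the Y chromosome, was not tested.

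Within 12.5 kb of each other the 734 peaks formed 596 loci, of which 508 held a single peak, 54 held 2 and 34 held 3 or more. The locus with most peaks, 7, was chr2:133016257-133033089, 97503 bp or more from ANKRD30BL, and its peaks had fold enrichments of 2.32 to 5.08 in OVCAR-3, 3.39 to 7.13 in SKOV-3, 3.31 to 6.62 in COLO-205 and 2.20 to 3.37 in DU-145. Their highest percentiles were 42.7, 83.6, 89.3 and 11.75 in the same order, so they ranked low in DU-145 but not in every line. Between 18.8% and 47.9% of the 31-base words in these 7 windows were repeated in the genome. The next held 6 peaks between DDIT4, a stress-induced inhibitor of mTOR signalling, and DNAJB12, a chaperone of the endoplasmic reticulum, on chr10:74057374-74093058, with up to 15.1, 6.28, 7.27 and 11.8 in the same order. There were 9 loci of 4 peaks, of which those at ID1, NIBAN2 and IER2 spanned the most bases.

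The starts of lncRNA genes named here were ordered by the rank in the weakest line, after the values were seen. After MIRLET7A1HG came NEAT1, the RNA scaffold of nuclear paraspeckles, whose peak at chr11:65183656-65191790 gave a fold enrichment of 23.2 in OVCAR-3, 9.25 in SKOV-3, 7.08 in COLO-205 and 8.98 in DU-145. The start of CHASERR, a lncRNA next to CHD2, gave 14.5, 8.27, 11 and 7.57. MALAT1, an abundant nuclear lncRNA, gave 20.6, 8.60, 7.67 and 5.79, and NORAD, which binds PUMILIO proteins, 17.1, 7.61, 7.4 and 4.85. In all, 180 lncRNA genes were the nearest to such a peak, and 84 of them have a symbol other than an Ensembl identifier. Low in the order was ROCK1P1, 772 bp from the summit, with percentiles of 0.00657 in OVCAR-3, 6.39 in SKOV-3, 0.151 in COLO-205 and 0.0119 in DU-145. These peaks lie at annotated starts of non-coding genes and are distal only by the definition used here. Whether the starts were in use was not tested.

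The starts of 3 host transcripts of let-7 microRNAs, which repress growth genes in many tissues, were among them. MIRLET7BHG gave 19.3 in OVCAR-3, 12.7 in SKOV-3, 8.36 in COLO-205 and 6.46 in DU-145, and MIRLET7IHG 15.5, 11.7, 6.34 and 6.64. With the stronger of 2 peaks at MIRLET7A1HG, all stood above the 86th percentile of every list, and the weaker of those 2 had its lowest percentile, 40.3, in SKOV-3. The mature microRNAs of these loci (RefSeq, GRCh38.p14) share the seed at bases 2 to 8, given in capitals.
hsa-let-7a-5p: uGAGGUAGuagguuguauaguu
hsa-let-7b-5p: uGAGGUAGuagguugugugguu
hsa-let-7i-5p: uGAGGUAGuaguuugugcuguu
A microRNA gene lay within 5 kb of 32 of the 734 peaks (4.36%, 3 to 6.10), against 1.49% (1.39 to 1.59) of the other distal peaks. Among them were MIR210, a microRNA induced by hypoxia, with 7.95, 6.74, 3.35 and 4.42 at the nearer of its 2 peaks, and the MIR200B, MIR200A and MIR429 cluster, whose microRNAs repress ZEB genes, with 6.58, 5.58, 7.35 and 3.83. The lowest percentile over the lines was 9.25 and 24.8. In 8 of the 32 peaks the lowest percentile was under 1, among them the 2 near MIR3648, with 2.78, 4.475, 3.90 and 2.06 at the nearer one. The let-7, MIR210, MIR200B and MIR3648 loci were picked after their values were seen.

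The genes next to the peaks were counted in 11 lists of genes, by nearest protein-coding start (nearest start of any type for the lncRNA list). A nearest start is a position and not a target. Over all 19794 protein-coding genes 551 (2.78%) were nearest to at least 1 of the 734 peaks, and 8472 were nearest to another distal OVCAR-3 peak. Of 25 AP-1 and immediate early genes, which respond to growth signals within minutes, 9 had such a peak (DUSP1, DUSP6, EGR1, FOS, IER2, JUNB, KLF6, MYC and ZFP36), with 16 peaks in all. Another distal OVCAR-3 peak was nearest to 19 of the 25, to 15 of the 18 genes of TGF-beta and SMAD signalling, to 14 of the 20 of the YAP and TEAD pathway and to 26 of the 29 of the cytoskeleton and adhesion. It was also nearest to 22 of 25 epithelial genes, 19 of 23 of glycolysis and hypoxia, 13 of 22 of NRF2 and stress response and 16 of 30 ribosomal protein genes. For lineage factors it was 6 of 14 and for olfactory receptors 2 of 19. Lists with many and with few of the 734 peaks thus both had many other distal peaks. IER2 had 4 of the 734 peaks, at fold enrichments of 5.50 to 9.46 in OVCAR-3, 3.70 to 6.97 in SKOV-3, 2.92 to 5.60 in COLO-205 and 2.80 to 6.49 in DU-145. Of the 2 peaks at ZFP36, an RNA-binding protein that destabilises cytokine mRNAs, the one at chr19:39899938-39902280 gave 20.9, 6.11, 6.86 and 5.05. The peak 24775 bp from KLF6 gave 6.93, 8.88, 5.41 and 13.2, and 37.5% of the 31-base words in its window were repeated in the genome. The 2 near FOS, which codes for a subunit of AP-1 and was picked after its values were seen, gave 11.9, 3.98, 5.79 and 7.43 and 18.0, 6.53, 4.87 and 7.44.

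Of 18 genes of TGF-beta and SMAD signalling, 5 had 12 peaks, namely ID1, ID3, SMAD3, SMAD6 and SMAD7. The receptor-activated factor SMAD3 had 3 intronic peaks, the best ranked of which gave a fold enrichment of 8.02 in OVCAR-3, 7.12 in SKOV-3, 4.93 in COLO-205 and 7.78 in DU-145. At ID1, an inhibitor of basic helix-loop-helix factors that BMP signals induce, the peak 3076 bp from the start gave 14.7, 7.01, 4.47 and 4.86. The inhibitory SMAD7, also picked after its values were seen, had a peak 1506 bp from its start with 26.4, 10.2, 4.26 and 5.46. Of 20 genes of the YAP and TEAD pathway 4 had 7 peaks (AJUBA, AMOTL2, NUAK2 and TEAD1). AMOTL2, a junction protein that holds YAP in the cytoplasm, had 4, and the one at chr3:134044070-134047614 gave 47.0, 11.7, 4.81 and 9.02. Its percentile was 99.99 in OVCAR-3 and 53.1 in COLO-205.

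Of 29 genes of the cytoskeleton and adhesion 6 had 11 peaks (ACTB, ACTG1, ACTN4, ITGA3, LAMA5 and PLEC). The intron of ACTN4, which codes for an actin crosslinker, gave 28.6, 8.07, 6.47 and 8.13, above the 87th percentile of all lists. Of 22 NRF2 and stress response genes 4 had 7 peaks (DDIT4, FTH1, HMOX1 and TXNRD1). FTH1, the heavy chain of ferritin, gave 18.8, 5.25, 4.46 and 5.41, and the peak 8058 bp from HMOX1, the inducible haem oxygenase, gave 4.35, 6.07, 4.6 and 4.50. The remaining lists of coding genes counted 1 of 25 epithelial genes (KRT80), 1 of 14 lineage factors (PAX8), 1 of 23 glycolysis and hypoxia genes (SLC2A1), 0 of 30 cytosolic ribosomal protein genes and 0 of 19 olfactory receptor genes. PAX8, an ovarian and renal lineage factor, had a peak 4573 bp from its start with 20.9 in OVCAR-3, 6.70 in SKOV-3, 5.74 in COLO-205 and 6.51 in DU-145. The OVCAR-3 summits of the peaks given for KLF6, ZFP36, FTH1 and PAX8 are outside the bases covered in all lists. Of 25 lncRNA genes 8 had 10 peaks (DLEU2, MALAT1, MIR17HG, MIRLET7BHG, NEAT1, NORAD, PVT1 and SNHG5). Another distal OVCAR-3 peak was nearest to 16 of these 25. The share over all protein-coding genes is no background for them, since they were counted by another kind of start, and the share over all lncRNA genes was not computed. The lists were drawn up with earlier results of these data known, and no test was made on the counts.

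Sequence was not used by the rule. The letters of 19 motifs were searched on both strands within 250 bp on each side of the OVCAR-3 summit. The AP-1 letters TGANTCA, where N is any base, were found in 160 of the 734 peaks (21.8%, 18.9 to 25), in 14% (13.7 to 14.3) of the other distal peaks and in 5.31% (4.67 to 6.01) of the common promoter peaks. Among the 1595 distal peaks of the other 3 lines that were not in the SKOV-3 list it was 14.7% (13 to 16.5). Within the 734 the share was highest away from starts. It was 14.8% (10.8 to 19.6) for the 271 peaks at a start of another type, 20.3% (13.5 to 28.7) for the 118 that flank a coding start and 27.8% (23.2 to 32.9) for the 345 near no start. In the other distal peaks of these 3 kinds it was 12.4%, 13.2% and 14.3%. The AP-1 difference was thus 7.82 percentage points over all distal peaks and 13.5 over those near no start.

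The difference over all distal peaks depended on the lists. It was 0.108 points (bounds of −5.72 and 6.86) when each list was cut to the same number of peaks and 0.132 (−3.35 and 3.82) when SKOV-3 peaks were counted in place of OVCAR-3 peaks. It was 2.91 (−0.123 and 6.18) when DU-145 peaks were counted, and 4.10 (−0.518 and 9.28) when peaks under a −log10 q of 10 were dropped. Leaving SKOV-3 out of the rule gave 2.96 (1.17 and 4.83). In 4 of these 5 the bounds, the lowest and the highest difference that the intervals of both shares allow, lay on both sides of 0. For peaks near no start, a comparison added after the data were seen, the difference was above 0 under all 14 alternatives tried, from 4.51 (SKOV-3 not required) to 16.2 points (COLO-205 peaks counted). With equal lists it was 10.1 points over 72 peaks, with bounds of −0.985 and 23.1. Peak width and GC moved with the choice of peaks. In the widest quartile of distal OVCAR-3 peaks, which held 599 of the 734, AP-1 was found in 23.5% against 14.8% of the other distal peaks, and in the quartile with most GC, which held 582, in 21.6% against 12.8%. Among the 17, 35 and 83 peaks of the 3 narrower quartiles the share was 5.88%, 25.7% and 10.8%, against 13.5%, 13.9% and 13.8%.

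**Figure D3:**
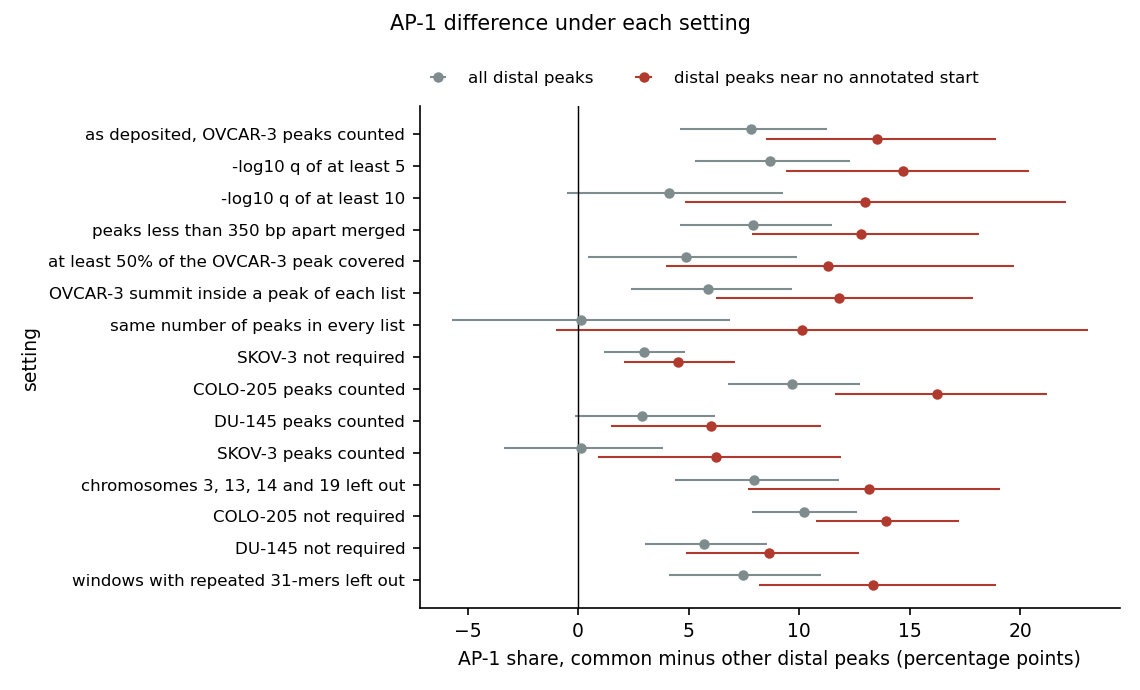
Difference in the share of peaks with an AP-1 match, common minus other distal peaks (horizontal axis, percentage points), under each setting (vertical axis), over all distal peaks (grey) and over those near no annotated start (red). Bars join the lowest and the highest difference that the 95% intervals of both shares allow; the grey points fall to 0.108 and 0.132 with lists of the same length and with SKOV-3 peaks counted, and the red points lie between 4.51 and 16.2.

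The AP-1 matches lay more often beside the summits than on them. In bins of 100 bp, 7.63% of the 734 peaks had a match centred 200 to 300 bp to the left of the OVCAR-3 summit and 6.54% had one 200 to 300 bp to the right. In the bins that touch the summit the shares were 2.04% and 3.81%, and at 900 to 1000 bp they were 3.54% and 3.27%. The other distal peaks had a shallower profile of the same shape, with 3.99% and 3.98% at 200 to 300 bp and 2.23% and 2.17% at the summit. The AP-1 letters of the KRT80 and MTCL1 sequences above, 242 and 236 bp from the summit, lie in this range.

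**Figure D4:**
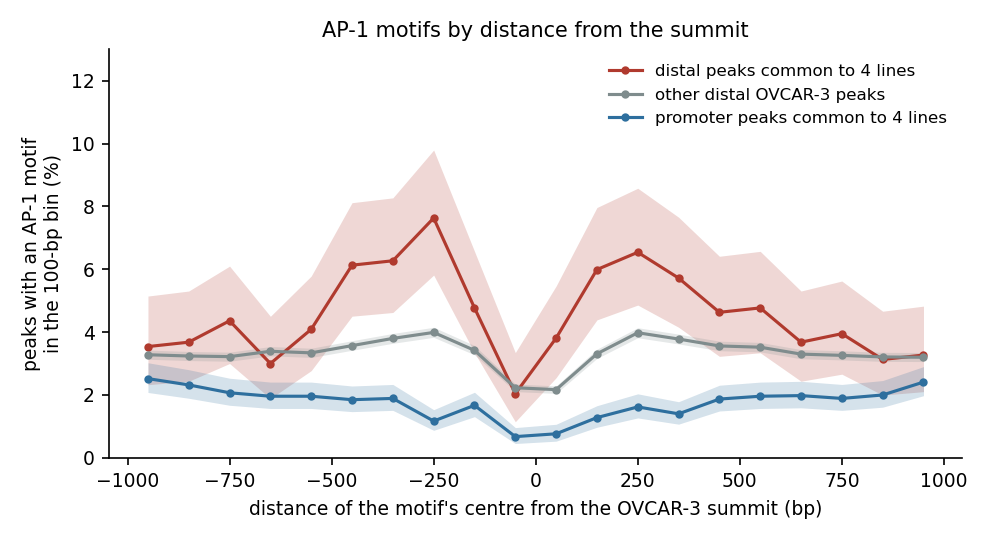
Share of peaks with an AP-1 match in each 100-bp bin (vertical axis, percent) by distance of the match from the OVCAR-3 summit (horizontal axis, bp), for the 734 common distal peaks (red), the 58319 other distal OVCAR-3 peaks (grey) and the 4444 common promoter peaks (blue). Bands are 95% intervals; the red line is highest at 7.63% left and 6.54% right of the summit and falls to 2.04% beside it.

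Motifs typical of promoters were also found in many of the peaks. The SP/KLF box GGGCGG stood in 56.5% (52.9 to 60.2) of the 734, in 20.4% of the other distal peaks and in 88.5% of the common promoter peaks. EGR letters, GCGNGGGCG, were found in 12.7% against 1.20% and 28.4%, ETS letters, CCGGAAG, in 9.40% against 3% and 22.6%, and the core of the CTCF site, AGGNGGCGC, in 7.36% against 1.35% and 14.5%. For each of the 4 the peaks lay between the other distal peaks and the promoters. So did the 1595 distal peaks of the other 3 lines that were not in the SKOV-3 list, with 41.9% (39.4 to 44.3) for SP/KLF, 7.21% for EGR, 6.58% for ETS and 5.02% for CTCF. In the quartile with most GC, the shares in the common and the other distal peaks were 66.2% against 37.7% for SP/KLF, 14.9% against 4.05% for EGR, 11.3% against 6.12% for ETS and 9.11% against 3.99% for CTCF. The SP/KLF share was 70.8% at starts of another type and 47.0% near no start. The CRE, TGACGTCA, which CREB and ATF proteins bind, was rare at 1.77% (0.946 to 3.01) against 0.369% and 2.45%. EGR and SP/KLF letters can overlap each other in GC-rich stretches.

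TEAD letters, GGAATG, stood in 26.6% (23.4 to 29.9) against 22.8% and 13.5%, but in the quartile with most GC the common and other distal peaks had 26.6% and 26%. ARE letters, TGACNNNGC, bound by NFE2L2 with small MAF proteins and able to overlap an AP-1 match, were found in 29.6% (26.3 to 33.0) against 22.7% and 21.4%. GATA letters, AGATAA, were found in 7.77% (5.93 to 9.94) against 15.3%, C/EBP letters, TTGCNNAA, in 10.8% (8.61 to 13.2) against 15.5%, and HNF1 letters, GTTAATNAT, in 0.272% (0.0330 to 0.981) against 0.778%. In the quartile with most GC, GATA letters stood in 5.84% (4.08 to 8.07) against 7.94%, C/EBP letters in 7.39% (5.40 to 9.82) against 11.6% and HNF1 letters in 0.344% (0.0416 to 1.24) against 0.294%. The GATA and HNF1 shares of the other distal peaks there lay inside the interval of the common ones. The letters TAATCC, bound by PITX proteins and also part of the Alu repeat, were found in 15.4% against 46.3%, and in the quartile with most GC in 7.39% against 12.2%. Windows with over 50% of repeated 31-base words were 3.81% (2.55 to 5.47) of the 734 and 11.3% of the other distal peaks, and what part of the PITX difference comes from repeats was not tested. The E-box CACCTG, bound by ZEB proteins, was found in 41.7% (38.1 to 45.4) against 57.6% and 30%, and the E-box CACGTG, bound by MYC and USF proteins, in 10.8% (8.61 to 13.2) against 7.35% and 12%. In the quartile with most GC the shares of the common and the other distal peaks were 39.5% against 54.7% for CACCTG and 11.5% (9.03 to 14.4) against 10.7% for CACGTG.

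The last 5 motifs searched were each found in under 6% of the 734 peaks. The RUNX letters TGTGGTT were in 5.86% (4.27 to 7.81) against 7.11% of the other distal peaks, the FOX letters TGTTTAC in 3.54% (2.33 to 5.15) against 4.2%, and the GRHL letters AACNGGTT in 3.41% (2.22 to 4.99) against 2.38%. For RUNX, FOX and GRHL the share of the other distal peaks lay inside the interval of the common ones. The YY1 letters AAGATGGC were in 2.04% (1.15 to 3.35) against 2.38% and the NRF1 letters GCGCATGCG in 0.545% (0.149 to 1.39) against 0.151%, both under the 8.57% and 2.79% of the common promoter peaks. A match of letters does not show that a factor was bound.

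**Figure D5:**
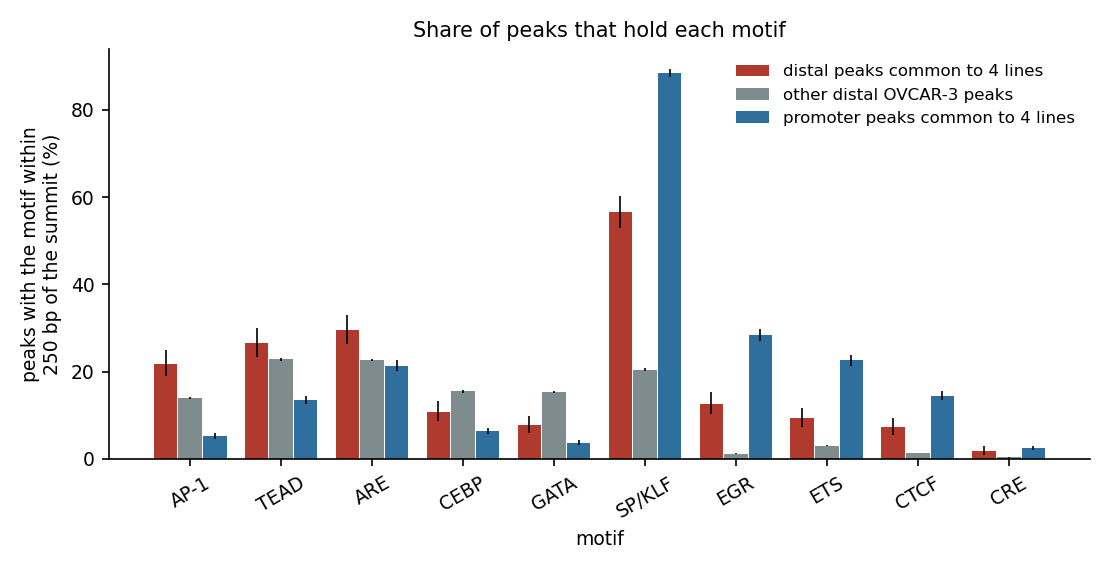
Share of peaks with each motif within 250 bp of the OVCAR-3 summit (vertical axis, percent) for 10 of the 19 motifs searched, in the 734 common distal peaks (red), the 58319 other distal OVCAR-3 peaks (grey) and the 4444 common promoter peaks (blue). Error bars are 95% intervals; AP-1, TEAD and ARE are highest in the red bars, and SP/KLF, EGR, ETS and CTCF lie between grey and blue.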

How the data were processed

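Chromatin precipitated with an H3K27ac antibody was sequenced in 1 library per line. Per the labels, the authors mapped reads to hg19 (GRCh37) with Bowtie2 2.1.0 and peaks were called library by library, in the narrow mode of MACS2 2.1.0.20150603. The methods give a q-value under 0.001. For each peak the deposited lists hold the summit, the −log10 of p and of q, the fold enrichment of the summit over its surroundings and a score that is the −log10 q rescaled, all made by the authors within a library. The stated merging of peaks under 350 bp apart is not applied in the deposited lists, and merging was an alternative.

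The peaks and lists described here were chosen with earlier results of these data known. Transcript starts came from GENCODE lifted to GRCh37, and sequence from GRCh37. Where several peaks of a list overlapped an OVCAR-3 peak, the one with the highest fold enrichment was used. Repeats were measured as 31-base words, taken every 10 bases, that occur again in GRCh37. Copies missing from this assembly were not counted. Tag numbers follow from the smallest background value of a list, its narrowest peak as fragment length and 2700000000 genome positions, with pileups recovered to within 0.001 of the −log10 p. Shares have exact 95% intervals for counting error, and no test between lines was possible with 1 library each. Named peaks are the 10 with the highest percentile in their weakest line, the 5 with the largest range of percentile, the 5 largest loci and, for each gene list, the 3 best in their weakest line. Others are said to be picked after their values were seen. The overlap and motif steps were tested on simulated data. Alternatives changed the q threshold, overlap, list length, distance, transcript set, line counted, lines required, motif window, chromosomes and repeats. Python 3.11.15, numpy 2.4.6, pandas 2.3.3, scipy 1.17.1, pysam 0.24.0 and matplotlib 3.10.9 were used. The study's mutation data were not analysed here, and some marker genes and some sequences are not reported here.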

Additional observations from a re-analysis of the deposited data

How the results depend on the processing

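Of 238 values recomputed for 13 results, 155 lay within the 95% interval of the reported value (for the number of peaks, within 1.5 times it) and 83 lay outside. For the AP-1 differences the lowest and the highest difference that the intervals of both shares allow were used in place of a 95% interval. Only the AP-1 difference could change sign, and it kept it. Of the 14 alternatives for the AP-1 difference near no start, 3 lay outside and none changed sign. No paired analysis was possible because each line has 1 library. The causes of the shifts were not tested, beyond what a setting does by construction.

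The number of peaks, 734, was 324 at a −log10 q of at least 10, 317 with 50% of the OVCAR-3 peak covered, 209 with equal lists, 463 with starts of any type, 2329 without SKOV-3 and 1647 without COLO-205. The distal share of common peaks, 14.2%, was 10.9% (−log10 q of 10), 12.5% (50% covered), 12.6% (summit covered), 9.155% (equal lists), 12.7% (2 kb), 10.5% (5 kb), 12.7% (all transcripts of coding genes), 8.94% (any type), 24.75% (without SKOV-3), 23.1% (without COLO-205) and 18.1% (without DU-145).

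The share at 1 to 5 kb, 25.7%, was 16.9% (2 kb), 29.6% (coding genes), 44.9% (any type), and 21.9% without COLO-205 and 21.9% without DU-145; over 5 kb it has no value. The share at other starts, 36.9%, was 46.9% (−log10 q of 10), 53.1% (equal lists), 29.4% (coding genes), 27.95% (without SKOV-3), 26.7% (without COLO-205) and 31.8% (without DU-145), with no value for starts of any type.

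The AP-1 share, 21.8%, was 17.2% (equal lists), 25.9% (any type), 16.9% (without SKOV-3), 18.5% (DU-145 counted), 17.2% (SKOV-3 counted), 41.0% (500 bp) and 31.7% (whole peak). The AP-1 difference, 7.82 points, was 4.10 (−log10 q of 10), 0.108 (equal lists), 11.8 (any type), 2.96 (without SKOV-3), 2.905 (DU-145 counted), 0.132 (SKOV-3 counted), 12.4 (500 bp) and 22.6 (whole peak).

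The median percentile in COLO-205, 45.9, was 32.0 (−log10 q of 10), 55.4 (50% covered), 52.3 (summit covered), 31.5 (equal lists), 42.6 (COLO-205 counted) and 80.8 (ranked by −log10 q). In DU-145, 71.4, it was 57.1 (−log10 q of 10), 49.8 (equal lists), 56.1 (without SKOV-3) and 89.9 (by −log10 q). In OVCAR-3, 84.0, it was 69.2 (50% covered), 58.2 (equal lists), 61.6 (without SKOV-3), 86.77 (COLO-205 counted), 86.9 (SKOV-3 counted), 89.9 (by −log10 q), 78.6 (without COLO-205) and 73.9 (without DU-145). In SKOV-3, 54.6, it was 64.3 (50% covered), 62.2 (summit covered), 71.6 (equal lists), 65.2 (by −log10 q) and 49.8 (without DU-145).

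The median summit distance in COLO-205, 55 bp, was 46 (−log10 q of 10), 64 (merged), 46.5 (summit covered), 46 (equal lists), 64 (without SKOV-3) and 71 bp (DU-145 counted). In DU-145, 70 bp, it was 55.5 (−log10 q of 10), 95 (merged), 58.5 (summit covered), 58 (equal lists), 83 (without SKOV-3) and 92.5 bp (COLO-205 counted). In SKOV-3, 45 bp, it was 35 (−log10 q of 10), 35 (summit covered), 35 (equal lists), 58 (COLO-205 counted) and 61 bp (DU-145 counted).

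Leaving out COLO-205 or DU-145, the repeat setting and the comparison near no start were chosen after seeing the data. "Without" a line means that its overlap was not required.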
